A study of Mus musculus with 20 samples.

Results

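The 10 genes named as glucocorticoid-responsive or as metallothioneins were followed in the cerebellum of male knock-in and wild-type mice, out of 29200 genes in the count table. They were picked by symbol: Hif3a, Mt1, Mt2, Sult1a1, Fkbp5, Sgk1, Tsc22d3, Zbtb16 and Pdk4 as genes that glucocorticoids induce, and Nr3c1 as the receptor itself. Hif3a, Mt2 and Sult1a1 were chosen because they were lower in the knock-in mice at 12 months, so the genotype difference of that age is a description for all 10 genes: no p is given for it, and the number of genes that meet the call rule stands only beside the share of all genes and supports nothing. The genotype difference of the young mice and the co-variation from mouse to mouse, which the choice did not use, were tested. The changes with age of the other 7 genes were tested too. These share the 12-month mice with the contrast that chose Hif3a, Mt2 and Sult1a1 and was known when the others were listed, so they are not independent of the choice. The mice, of strain C57BL6/N, were either WT/WT or 304Q/304Q, the latter carrying on both Atxn3 alleles a hyper-expanded and interrupted repeat for polyglutamine that was knocked in under the gene's own promoter as a model of spinocerebellar ataxia type 3. Cerebella were taken from 5 mice of each genotype at 2 months and from 5 of each at 12 months, and every library of polyA RNA came from 1 mouse. The labels of the WT/WT mice name ataxin-2, but the study describes Atxn3. The study calls the WT/WT mice littermates of the 304Q/304Q mice, but the labels tie no mouse to a litter, and the hour at which they were killed was not given in the sources used here.

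Glucocorticoids cross the cell membrane and bind the glucocorticoid receptor, which is held by heat shock proteins in the cytoplasm, moves into the nucleus and binds response elements near its target genes. Blood levels of these hormones follow the day and rise with stress, and in the brain astrocytes, endothelial cells and oligodendrocytes are among the cells in which such targets are known to respond. Fkbp5 encodes a chaperone that dampens the receptor, Tsc22d3 the anti-inflammatory protein GILZ, Sgk1 a kinase that regulates ion channels and transporters, Zbtb16 a zinc finger repressor and Pdk4 a kinase that holds back the oxidation of glucose. Hif3a encodes a member of the hypoxia-inducible factor family, Sult1a1 a sulfotransferase for phenols. Metallothioneins, encoded by Mt1 and Mt2, bind zinc and copper and are abundant in astrocytes, and their genes are switched on by metals through metal response elements as well as by glucocorticoids.

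Promoters of Mt2, Mt1 and Sgk1 are shown as examples that carry metal or glucocorticoid response elements. They are given as in RefSeq for GRCm38.p6, from 250 bases before to 50 after the annotated start. Other windows with a core, such as that of Hif3a and another start of Sgk1, are not shown. Mt2 (chr8:94172368-94172667, + strand) is shown with the 4 cores of metal response elements in capitals, Mt1 (chr8:94178839-94179138, + strand) with 3 of them, and Sgk1 (chr10:21993640-21993939, + strand, 1 of 6 annotated starts) with the core of a glucocorticoid response element in capitals.
Mt2: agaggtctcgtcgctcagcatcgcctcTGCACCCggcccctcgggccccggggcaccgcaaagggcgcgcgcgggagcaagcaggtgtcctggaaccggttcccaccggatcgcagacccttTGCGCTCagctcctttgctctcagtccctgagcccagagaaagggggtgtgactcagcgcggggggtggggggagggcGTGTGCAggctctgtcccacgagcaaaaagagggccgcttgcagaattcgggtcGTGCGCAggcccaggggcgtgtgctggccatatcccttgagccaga
Mt1: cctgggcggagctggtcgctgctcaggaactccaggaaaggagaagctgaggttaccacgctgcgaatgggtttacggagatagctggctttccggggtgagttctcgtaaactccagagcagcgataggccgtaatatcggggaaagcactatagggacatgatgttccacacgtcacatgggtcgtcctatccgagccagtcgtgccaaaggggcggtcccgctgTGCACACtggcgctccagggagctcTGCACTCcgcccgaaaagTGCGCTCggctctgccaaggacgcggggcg
Sgk1: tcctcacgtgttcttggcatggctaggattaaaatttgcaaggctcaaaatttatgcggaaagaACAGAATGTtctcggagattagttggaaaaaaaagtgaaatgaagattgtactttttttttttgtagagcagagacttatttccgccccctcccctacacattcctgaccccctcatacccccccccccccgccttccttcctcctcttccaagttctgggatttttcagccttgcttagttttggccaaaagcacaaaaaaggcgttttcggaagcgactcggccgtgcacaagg
The metal response core was searched as TGCACNC or TGCGCNC and the glucocorticoid response element as its core ACANNNTGT, in full only where GN came before it and NC after it, all on both strands, so that a capital run may read as the complement. The window of Mt1 also held 1 full glucocorticoid response element, which is in lower case here. Of 32851 RefSeq promoters of the same length, 0.517% held 4 or more metal response cores, 1.97% held 3 or more, 25.7% held any, 0.475% held the full glucocorticoid response element and 6.85% its core. Promoters of 8 of the 10 genes were searched, as Zbtb16 had no entry and Nr3c1 was left out. No full glucocorticoid response element was found in the windows of Mt2, Hif3a, Sult1a1, Fkbp5, Tsc22d3 and Pdk4 or at the other 5 starts of Sgk1, which says only that these letters are not in these windows.

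Library totals ran from 11385380 to 27636687 counts, and all 10 genes passed the limit of a mean of 50 counts at which 12153 genes were tested. Values per mouse are normalized counts, that is counts brought to the average effective size of the libraries. Atxn3, the edited gene, had between 240 and 332 normalized counts in the WT/WT mice of 2 months and between 158 and 241 in the 304Q/304Q mice, with a log2 fold change of -0.54 (SE 0.115) that missed the threshold in edgeR at an adjusted p of 0.0916. It met the call rule in DESeq2 (-0.54, and -0.51 with surrogate variables), with surrogate variables in edgeR (-0.51) and without 304Q/304Q mouse 5 of 2 months (-0.63). At 12 months its values overlapped, from 202 to 234 in WT/WT and from 181 to 220 in 304Q/304Q mice. Over 1000 normalized counts of Ttr, a choroid plexus gene, were found in 6 libraries, namely 1 of the 304Q/304Q mice of 2 months, 3 WT/WT mice and 2 304Q/304Q mice of 12 months. In bulk tissue, fewer cells of a type and less RNA per cell cannot be told apart. Compared per length of exon, as RPKM in the WT/WT mice of 2 months, Mt1 stood at 188.4 ± 10.3 (SD, n = 5) and Mt2 at 24.4 ± 6.19. Tsc22d3 (19.7 ± 5.55), Sgk1 (16.5 ± 6.44) and Nr3c1 (16.1 ± 0.72) followed and did not differ beyond their spread. Sult1a1 (4.05 ± 1.12), Pdk4 (2.61 ± 0.539), Zbtb16 (1.88 ± 1.27), Hif3a (1.31 ± 1.08) and Fkbp5 (1.02 ± 0.278) made up the low end, where neighbours in the order overlapped from Pdk4 downwards.

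Among the metallothioneins, Mt1 (ENSMUSG00000031765, chr8:94179082-94180327) was evenly expressed between the mice of a group, and its genotype groups stood apart at 12 months. At 2 months it had 3106, 3194, 3499, 3374 and 3512 normalized counts in the WT/WT mice and 3031, 3169, 3244, 2722 and 2884 in the 304Q/304Q mice. At 12 months, it had 3821, 3555, 4843, 3768 and 3958 in WT/WT and 2464, 2096, 2631, 2355 and 2350 in 304Q/304Q mice. The groups overlapped at 2 months, whereas at 12 months every 304Q/304Q mouse lay below every WT/WT mouse, with a log2 fold change of -0.75 (SE 0.0732). In WT/WT mice Mt1 rose with age by a log2 value of 0.26 (SE 0.0726, adjusted p = 0.0237), and all 5 old mice lay above all 5 young ones. In 304Q/304Q mice it fell with age, with a log2 fold change of -0.34 (SE 0.073, adjusted p = 0.00371), and all 5 old mice lay below all 5 young ones. The difference of both genotype effects was -0.60 (SE 0.103, adjusted p = 0.0023). Like both changes with age, it rests in part on the 12-month mice by which the group was chosen. The rise in WT/WT mice lost the adjusted p in 6 of 29 alternatives, among them without the WT/WT mouse 3 of 12 months, and its highest adjusted p was 0.232. The fall in 304Q/304Q mice passed in all 29.

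Mt2 (ENSMUSG00000031762, chr8:94172664-94173568) was less abundant and more variable. It had 214, 282, 205, 173 and 144 normalized counts in the WT/WT and 176, 158, 156, 132 and 190 in the 304Q/304Q mice of 2 months. At 12 months it had 187, 184, 308, 228 and 144 in WT/WT and 124, 86.4, 119, 101 and 91.3 in 304Q/304Q mice. The older groups did not overlap, and the log2 fold change was -1.01 (SE 0.187). With age, its log2 fold change was 0.05 (SE 0.178) in WT/WT and -0.64 (SE 0.187) in 304Q/304Q mice, given without a test since Mt2 was chosen on the old mice. Without the 6 libraries with choroid plexus RNA, the 12-month difference was -1.53 for Mt2 and -0.93 for Mt1. Only WT/WT mice 3 and 4 of 12 months are left there, the 2 highest of their group for Mt2. For Mt1, mouse 3 was the highest and mouse 4 the second lowest. The part of choroid plexus RNA in these values was not tested. Mt2 shares 432 exon bases with Gm45774 on the opposite strand, at a mean of 7.6 counts, and whether the counting used the strand was not given.

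Hif3a (ENSMUSG00000004328, chr7:17031507-17062427) showed the largest log2 fold change of the 10 genes at 12 months and also one of the widest spreads. It had 302, 125, 75.7, 51.0 and 70.0 normalized counts in the WT/WT mice of 2 months and 114, 23.6, 59.3, 84.3 and 146 in the 304Q/304Q mice. At 12 months, the values were 214, 188, 154, 78.2 and 97.7 in WT/WT and 28.8, 27.7, 33.8, 53.4 and 63.2 in 304Q/304Q mice. Young mice of both genotypes spread 5.92-fold and 6.2-fold from lowest to highest and overlapped, while the old groups did not, with a log2 fold change of -1.81 (SE 0.455). Zbtb16 (ENSMUSG00000066687, chr9:48654297-48836222) varied in a similar way. Its 12-month values were 260, 118, 212, 64.2 and 127 in WT/WT and 72.0, 58.7, 46.3, 90.5 and 65.2 in 304Q/304Q mice, so that the lowest WT/WT mouse lay among the 304Q/304Q mice. The log2 fold change was -1.22 (SE 0.405). At 2 months Zbtb16 ran from 69.1 to 303 in WT/WT and from 44.8 to 168 in 304Q/304Q mice.

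Sult1a1 (ENSMUSG00000030711, chr7:126672865-126676432), the sulfotransferase gene, was the one closest to the limit of testing. Its values at 12 months were 75.7, 96.1, 82.3, 58.2 and 93.3 normalized counts in WT/WT and 51.5, 35.4, 42.5, 62.1 and 34.1 in 304Q/304Q mice, and 1 WT/WT mouse lay below the highest 304Q/304Q mouse. The log2 fold change was -0.84 (SE 0.216), and at 2 months the groups ran from 63.9 to 126 and from 44.0 to 78.6. Its raw counts lay between 32 and 57 in the old 304Q/304Q mice, where counting error is a large part of the spread. It shares 61 exon bases with Sgf29 on the opposite strand, which had a mean of 214 counts.

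Sgk1 and Tsc22d3, both well expressed, were spread widely over the WT/WT mice and narrowly over the 304Q/304Q mice. Sgk1 (ENSMUSG00000019970, chr10:21882184-21999903) had 1792, 1425, 896, 702 and 921 normalized counts in the young WT/WT and 841, 740, 877, 818 and 871 in the young 304Q/304Q mice. In the old mice it had 1539, 915, 1320, 829 and 1249 in WT/WT and 748, 710, 797, 724 and 768 in 304Q/304Q. The 12-month groups did not overlap but came close, at 829 against 797, and the log2 fold change was -0.64 (SE 0.183). Tsc22d3 (ENSMUSG00000031431, chrX:140539528-140600659) had 1579, 1038, 1630, 1105 and 1269 in the old WT/WT mice and 903, 839, 873, 797 and 912 in the old 304Q/304Q mice, again without overlap. Its log2 fold change was -0.61 (SE 0.143). At 2 months Tsc22d3 ran from 832 to 1745 in WT/WT and from 966 to 1219 in 304Q/304Q mice. At 12 months the SD of log2 CPM was 0.0660 in 304Q/304Q against 0.374 in WT/WT mice for Sgk1 and 0.0802 against 0.294 for Tsc22d3. The SD was smaller in the old 304Q/304Q than in the old WT/WT mice for 8 of the 10 genes and for 60.2% of all genes tested, and at 2 months for 6 of 10 and 57.9%.

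Fkbp5, the receptor's co-chaperone (ENSMUSG00000024222, chr17:28399094-28517527), and Pdk4 (ENSMUSG00000019577, chr6:5483351-5496309) were set apart less clearly. Fkbp5 had 209, 154, 212, 111 and 131 normalized counts in the old WT/WT and 136, 94.2, 119, 113 and 108 in the old 304Q/304Q mice, which overlapped, with a log2 fold change of -0.52 (SE 0.182). At 2 months it ran from 95.2 to 197 and from 117 to 149. Pdk4 overlapped at both ages. It ran from 105 to 169 in the old WT/WT and from 68.7 to 136.5 in the old 304Q/304Q mice, and its log2 fold change was -0.28 (SE 0.202). At 2 months Pdk4 ran from 105 to 163 in WT/WT and from 67.0 to 130 in 304Q/304Q mice.

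Nr3c1 (ENSMUSG00000024431), the glucocorticoid receptor gene, at 12 months went the other way from the genes it induces. At 2 months it did not, with a log2 fold change of -0.03 (SE 0.0605). It had 1835.5, 1808, 1770, 1631 and 1759 normalized counts in the young WT/WT and 1767, 1653.5, 1633, 1610 and 1938 in the young 304Q/304Q mice. The old mice had 1717, 1488, 1441, 1452 and 1594 in WT/WT and 1609, 1850, 1825.5, 1848 and 1813 in 304Q/304Q. In the old groups 4 of 5 304Q/304Q mice lay above all WT/WT mice and the fifth among them, at a log2 fold change of 0.22 (SE 0.0608). With age Nr3c1 fell in WT/WT mice, with a log2 fold change of -0.19 (SE 0.0608, adjusted p = 0.0393), but 11 of 29 alternatives lost this, among them surrogate variables in edgeR and leaving out WT/WT mice 1, 2 or 3 of 2 months or 2, 3, 4 or 5 of 12 months, and the highest adjusted p was 0.259. In 304Q/304Q mice the log2 fold change with age was 0.06 (SE 0.0605, adjusted p = 0.697).

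**Figure D1:**
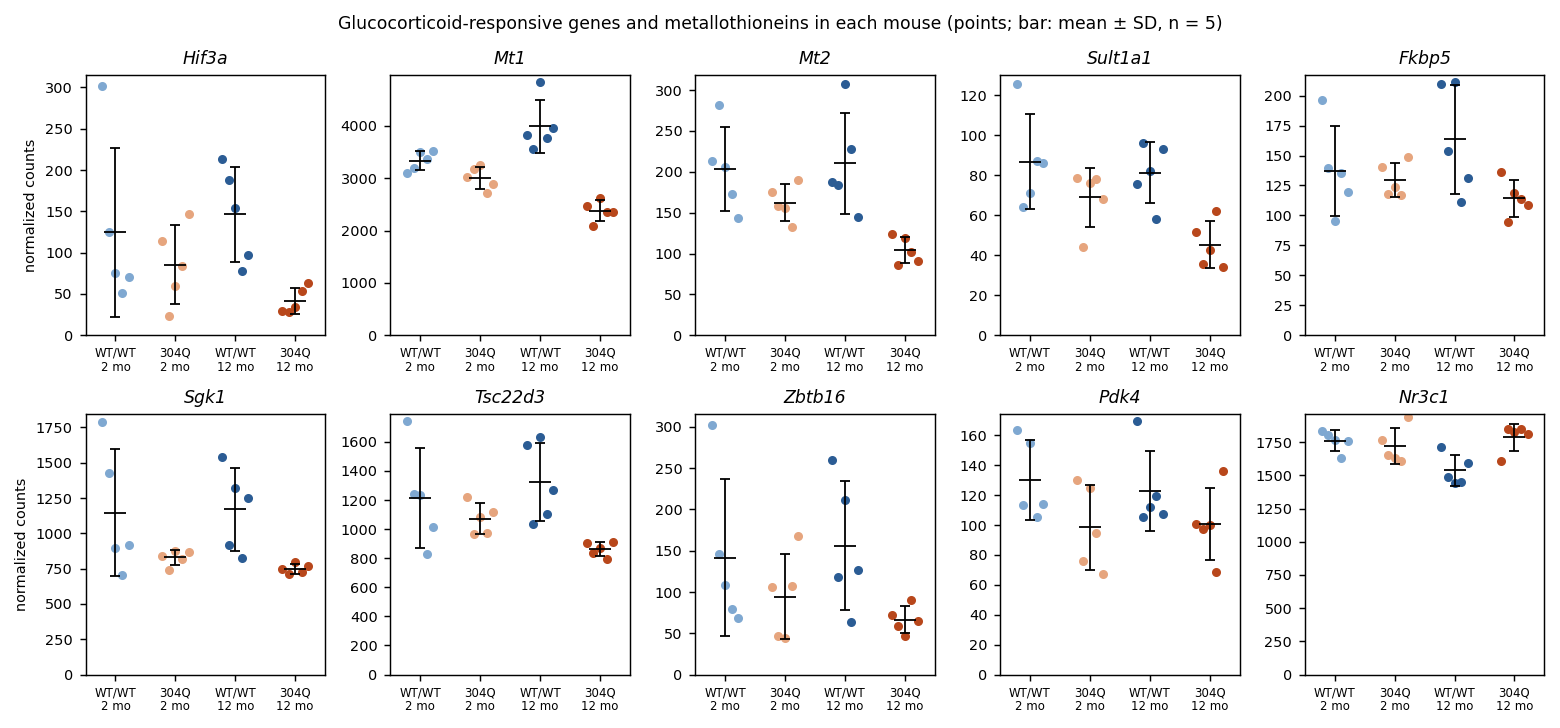
Normalized counts (y axis, linear from 0) of each of the 10 genes in every mouse, by genotype and age (x axis); points are mice and the bar is the mean ± SD of 5 mice. At 12 months the 304Q/304Q points of Mt1, Mt2, Hif3a, Sgk1 and Tsc22d3 all lie below the WT/WT points, and those of Nr3c1 lie mostly above.

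At 12 months, a call means an adjusted p of at most 0.05 in edgeR's quasi-likelihood test together and a difference of 0.5 or more on the log2 scale. By that rule 7 of the 10 genes were lower in 304Q/304Q mice (Hif3a, Mt1, Mt2, Sult1a1, Sgk1, Tsc22d3 and Zbtb16), beside 1.83% of all genes tested called lower and 1.26% called higher, and for 5 of the 10 every 304Q/304Q mouse lay below every WT/WT mouse, beside 5.43% of all genes. The count also varied with the fit: Zbtb16 met the rule in 11 of 28 alternatives and not without any one of the 304Q/304Q mice of 12 months, Sgk1 in 23 of 29, Tsc22d3 in 26 of 29, Sult1a1 in 26 of 28 and Hif3a in 27 of 28, while Mt1 and Mt2 met it in all 29. Nothing is read from these counts, since that contrast chose 3 of the genes and was known when the others were listed. Their median log2 fold change was -0.694, against -0.004 for all genes tested. Without the 6 libraries with choroid plexus RNA, 2 of the 10 genes met the rule, Mt1 and Mt2, and Hif3a had a log2 fold change of -1.26.

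The 2-month mice, which played no part in the choice, gave no call. None of the 10 genes passed in edgeR, where 0.00823% of all genes did, and none was called by DESeq2 with or without surrogate variables. Sgk1 was the one gene of the 10 with an unadjusted p under 0.05, and its log2 fold change was -0.47 (SE 0.181, adjusted p = 0.823). No gene of the 10 had all 304Q/304Q below all WT/WT mice, as 0.551% of all genes did. All 10 log2 fold changes were below 0, where 50.7% of all genes were lower. They come from the same mice, so the 10 directions are not separate observations. The values ran from -0.56 (SE 0.388) for Zbtb16 and -0.51 (SE 0.42) for Hif3a to -0.07 (SE 0.18) for Fkbp5 and -0.03 (SE 0.0605) for Nr3c1. Their median was -0.321 against -0.002 over all genes. WT/WT mouse 1 of 2 months had the highest value of its group for 7 of the 9 induced genes, though not for Mt1, where it was the lowest, or Mt2. Without it the 2-month log2 fold change turned to 0.11 for Hif3a and to 0.09 for Fkbp5, and those of the other 8 genes stayed below 0.

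**Figure D2:**
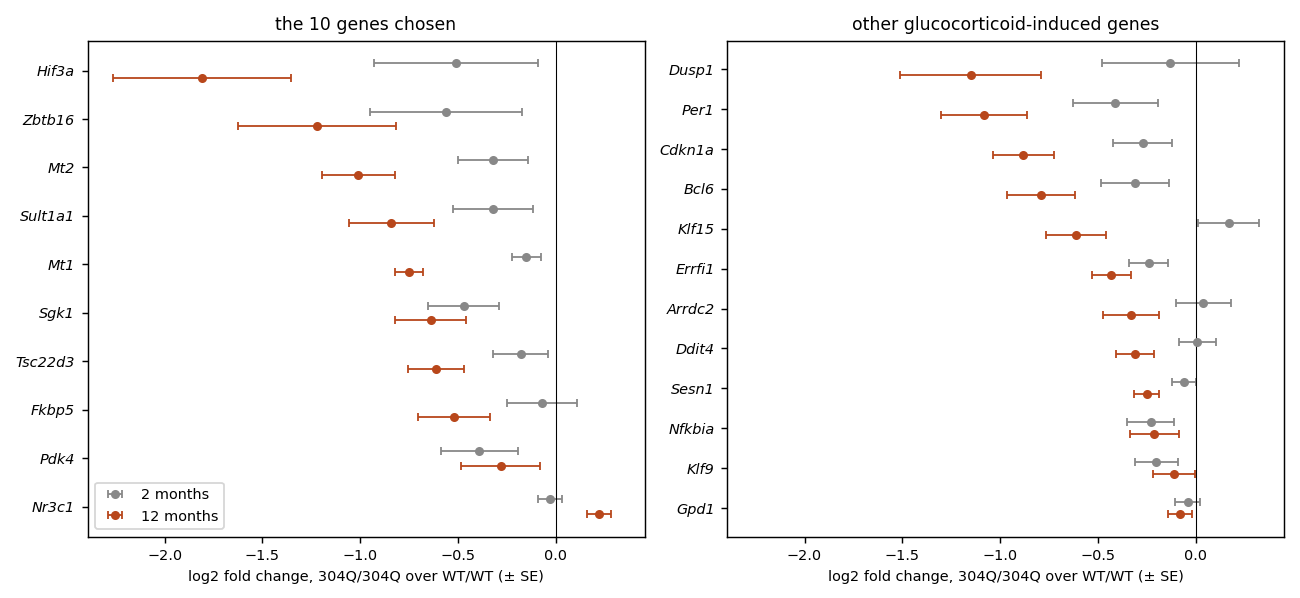
Log2 fold change of 304Q/304Q over WT/WT mice (x axis, with its SE) at 2 months (grey) and 12 months (red), for the 10 genes on the left and for the 12 tested genes of the list of other glucocorticoid-induced genes on the right. At 12 months all points lie below 0 except Nr3c1 at 0.22, and the values of Hif3a, Mt2 and Sult1a1 on the left chose these genes.

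With age, none of the 10 genes met the call rule in WT/WT mice, where 2.58% of all genes did, although Mt1 and Nr3c1 passed the adjusted p as given above and were the 2 genes with an unadjusted p under 0.05. In 304Q/304Q mice 1 of the 10 met it, Mt2, beside 2.28% of all genes, and nothing is read from it since Mt2 was chosen on the old mice. For Tsc22d3 the log2 fold change with age in 304Q/304Q mice was -0.31 (SE 0.143, adjusted p = 0.226), although all 5 old mice lay below all 5 young ones. Those of Fkbp5, Sgk1, Zbtb16 and Pdk4 lay between -0.52 and 0.02, with adjusted p of 0.559 to 0.967. In WT/WT mice the same 4 genes lay between -0.08 and 0.25. The comparisons share their mice, so these values are not independent of each other.

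Other genes that glucocorticoids are known to induce were lower as well at 12 months. Their list was drawn up with earlier results of these data known, so it is no independent test of the members. From a list of 17 genes without the members above, 12 were tested, and all 12 were lower in 304Q/304Q mice, with a median log2 fold change of -0.381, where 50.9% of all genes were lower and the median was -0.004. Of these, 5 were called lower and none higher (1.83% and 1.26% of all genes), 8 passed the adjusted p as lower (887 of all 12153), and for 7 all 304Q/304Q lay below all WT/WT mice (5.43% of all genes). Dusp1, a phosphatase that shuts off MAP kinases, had 1499, 1789, 1743, 1648 and 1709 normalized counts in the old WT/WT and 1152, 393, 817, 302 and 1104 in the old 304Q/304Q mice (log2 fold change -1.15, SE 0.36, adjusted p = 0.036). Per1, a clock gene with a direct hormone response, had 3407, 2423, 4052, 2382 and 3911 in WT/WT and 1380, 1377, 1305, 1384 and 2209 in 304Q/304Q mice (log2 fold change -1.08, SE 0.22, adjusted p = 0.00177). None of the 304Q/304Q mice reached the lowest WT/WT mouse for either gene. The cell cycle inhibitor Cdkn1a, at 185 to 283 against 105 to 136, had a log2 fold change of -0.88 (SE 0.157, adjusted p = 0.00042). The transcriptional repressor Bcl6, at 1644 to 2503 against 1032 to 1638, had one of -0.79 (SE 0.174, adjusted p = 0.00349), and Klf15, a Krüppel-like factor, at 352 to 540 against 274 to 308, one of -0.61 (SE 0.154, adjusted p = 0.0101).

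Errfi1 (-0.43), Ddit4 (-0.31) and Sesn1 (-0.25) passed the adjusted p below the fold limit, and Arrdc2, Nfkbia, Klf9 and Gpd1 did not pass it. Errfi1 kept the adjusted p in 28 of 29 alternatives, Ddit4 in 18 and Sesn1 in 26. With surrogate variables Ddit4 and Sesn1 lost it, and without the libraries with choroid plexus RNA all 3 did. The 5 untested genes, Plin4, Cebpd, Map3k6, Angptl4 and Lcn2, lay under the limit of 50 counts. At 2 months 9 of the 12 were lower (50.7% of all genes), with a median of -0.167, none was called by edgeR or DESeq2, and 1 had an unadjusted p under 0.05. With age, Klf15 rose in WT/WT mice by 0.68 (SE 0.154, adjusted p = 0.00668) and Cdkn1a fell in 304Q/304Q mice, with a log2 fold change of -0.64 (SE 0.157, adjusted p = 0.0117, and 0.0679 without the libraries with choroid plexus RNA). Without the 6 libraries with choroid plexus RNA, which leaves 2 WT/WT and 3 304Q/304Q mice of 12 months, 1 gene of the list was still called, Cdkn1a, and the log2 fold changes of Per1 and Klf15 were -0.96 and -0.65 at adjusted p of 0.101 and 0.111.

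Dusp1 is also an immediate early gene, and its lowest values fell in the 4 mice with the lowest Fos. Fos, the classical gene of that class, had 94.2 and 107 normalized counts in 304Q/304Q mice 2 and 4 of 12 months, in which Dusp1 had 393 and 302, and 139 and 116 in mouse 4 of each genotype of 2 months, in which Dusp1 had 445 and 400. In the other 16 mice Fos lay between 425 and 1822. Not every gene of the class was low in all 4 of these mice. Arc was the highest of its group in mouse 4 of each genotype of 2 months, at 557 and 537 normalized counts. In 304Q/304Q mice 2 and 4 of 12 months it was the lowest and second lowest, at 585 and 617. Of 9 immediate early genes 8 were tested, and none was called between the genotypes at 12 months, while 1 passed the adjusted p as higher. Nr4a1 had a log2 fold change of -1.22 (SE 0.479, adjusted p = 0.098) and Fosb one of -1.1 (SE 0.567, adjusted p = 0.212). Without 304Q/304Q mouse 5 of 12 months both met the call rule, at -1.79 and -1.84, and Nr4a1 also did with the replicate block, at -1.56. The call of Dusp1 was lost in 11 of 29 alternatives, among them surrogate variables in edgeR, where its log2 fold change was -0.28, and leaving out WT/WT mouse 2, 3, 4 or 5 or 304Q/304Q mouse 2, 3 or 4 of 12 months. The part of these genes in the other differences was not tested.

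**Figure D3:**
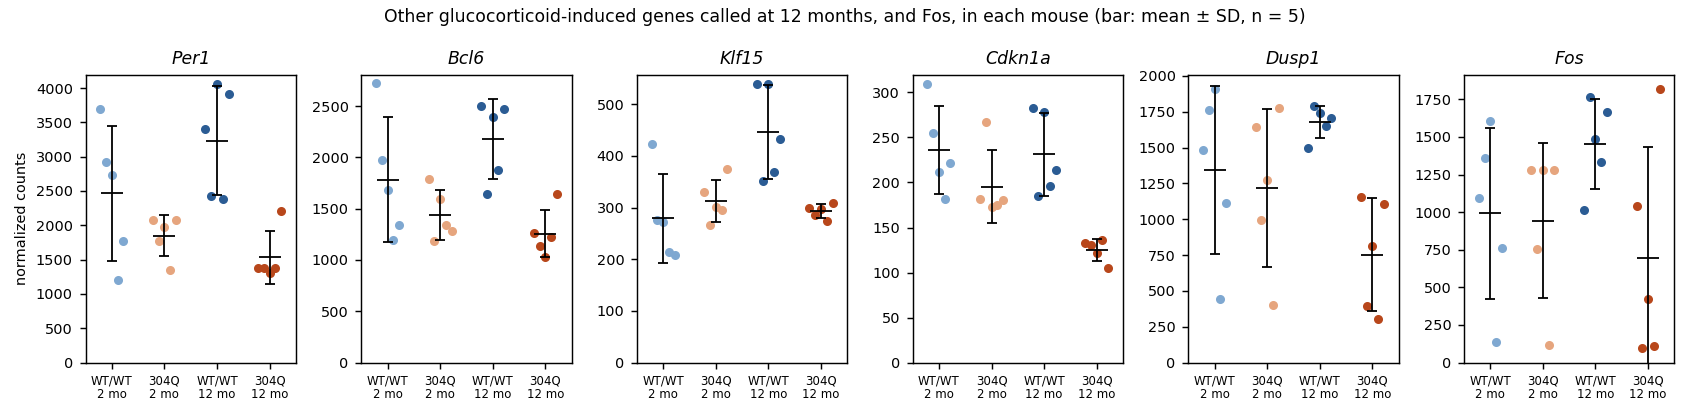
Normalized counts (y axis, linear from 0) of the 5 listed genes called lower at 12 months and of Fos in every mouse; points are mice and the bar is the mean ± SD of 5 mice, cut at 0 where it reaches below. For Per1, Bcl6, Klf15, Cdkn1a and Dusp1 every 304Q/304Q mouse of 12 months lies below every WT/WT mouse of that age, while Fos spreads from 94.2 to 1822 in the 304Q/304Q mice.

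The receptor's partners and the handlers of metal gave no calls with all libraries. Of 13 genes of the receptor machinery 12 were tested and none was called at 12 months, with a median of -0.052. Hsd11b1, the enzyme that regenerates active glucocorticoid inside cells, was lower at 577 to 688 normalized counts in 304Q/304Q against 728 to 850 in WT/WT mice (log2 fold change -0.28, SE 0.0685, adjusted p = 0.00734). The coactivator Ncoa2 was higher by 0.26 (SE 0.0756, adjusted p = 0.0225). Of 12 genes of metal and zinc homeostasis 10 were tested, 4 were lower and none was called. Mt3, the metallothionein of the brain, had a log2 fold change of -0.37 (SE 0.075, adjusted p = 0.00165) with values of 1610 to 2123 against 2247 to 2955, and the zinc transporter Slc30a4 one of 0.35 (SE 0.0974, adjusted p = 0.018). Among 19 family relatives of the 10 genes, 15 were tested and none was called, with a median of 0.009. Tsc22d4 was lower by -0.36 (SE 0.0857, adjusted p = 0.00645) and Pdk1 higher by 0.36 (SE 0.0984, adjusted p = 0.0183). Without the libraries with choroid plexus RNA, the adjusted p was 0.0582 for Hsd11b1, 0.207 for Slc30a4, and 0.265 for Pdk1. Mt3 then met the call rule, with a log2 fold change of -0.52 and an adjusted p of 0.00812, where 2 WT/WT mice of 12 months are left. At 2 months, none of the 3 lists held a gene called, or one with an unadjusted p under 0.05.

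Glucocorticoid targets follow the day, and so do the clock genes listed beside them. Of 15 core clock genes tested, 12 were lower in 304Q/304Q mice at 12 months (50.9% of all genes), with a median of -0.299, and 3 were called lower (1.83% of all genes). Besides Per1 these were Dbp, a clock output gene, with 812 to 1173 normalized counts in WT/WT and 557 to 638 in 304Q/304Q mice (log2 fold change -0.67, SE 0.0958, adjusted p = 2.91e-05), and Nr1d1, which encodes the repressor REV-ERB alpha, with 3929 to 4859 against 2850 to 3064 (log2 fold change -0.60, SE 0.0554, adjusted p = 7.9e-08). Per2 had a log2 fold change of -0.69 (SE 0.288, adjusted p = 0.119). No clock gene was called at 2 months. The effects at both ages differed for Dbp by -0.78 (SE 0.134, adjusted p = 0.00233) and for Nr1d1 by -0.50 (SE 0.078, adjusted p = 0.00076). As the hour of killing was not given, genotype and hour cannot be told apart in these values.

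Markers of several cell types differed between the genotypes at 12 months, when 887 of all 12153 genes passed the adjusted p as lower and 636 as higher. Of 12 astrocyte markers, the cells rich in metallothioneins, 9 were lower and 5 passed the adjusted p. Their summed level was 6424 to 6581 CPM in WT/WT and 5356 to 5734 in 304Q/304Q mice, against 6285 to 6946 and 6040 to 6624 at 2 months. For the 10 genes of myelinating oligodendrocytes, 9 were lower and 5 passed, at 5289 to 6022 against 3475 to 4805 CPM. Their sums stood apart at 2 months already, at 5749 to 6598 in WT/WT against 4977 to 5629 CPM in 304Q/304Q mice, where 8 of the 10 were lower and 1 passed. All 5 Purkinje cell markers were lower and 4 passed, at 6029 to 6632 against 4916 to 5302 CPM, and 4 of 5 blood genes passed as lower, at 116 to 247 against 96.2 to 112 CPM. Endothelial markers passed in 2 of 10 as lower, at 285 to 317 against 259 to 290 CPM, and mural markers in 2 of 6, at 289 to 316 against 246 to 321 CPM. Among 6 tested microglial genes 1 passed as higher, and no tested marker of the choroid plexus (5), meninges (5) or granule cells (4) passed. No marker of any list was at 0 in a group. The part of these shifts in the values of the 10 genes was not tested.

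Whether the 10 genes move together from mouse to mouse was asked after the mean of each group was removed, so that the differences which chose them cannot enter. Deviations of log2 CPM were correlated over the 20 mice for all 45 pairs, with 2-sided permutation tests of 100000 shuffles within groups and adjustment over the 45. Of the 45 correlations 37 were positive, with a median r of 0.32, and 9 passed at an adjusted p of at most 0.05 by Pearson's r and 1 by Spearman's rho. What share of pairs over all genes would be positive or pass was not computed, so nothing is read from these counts. Sgk1 and Tsc22d3 had r = 0.878 (permutation p = 0.00099, adjusted 0.0195) and rho = 0.794 (permutation p = 0.0035), and 0.749 without the 2 mice farthest from the median of Sgk1. Hif3a and Zbtb16 had r = 0.835 (permutation p = 6e-05, adjusted 0.0027), rho = 0.768 (permutation p = 0.00071, adjusted 0.0319) and 0.776 without the 2 farthest mice. Both pairs were positive within each age, at 0.877 and 0.882 for the first and 0.915 and 0.659 for the second at 2 and 12 months. The other pairs that passed joined Zbtb16 with Sgk1 (0.72), Fkbp5 (0.72) and Tsc22d3 (0.711), Hif3a with Sgk1 (0.664), Tsc22d3 (0.636) and Fkbp5 (0.617), and Tsc22d3 with Pdk4 (0.545), with adjusted permutation p of 0.0195 to 0.0423. Their rho lay between 0.567 and 0.671 with adjusted permutation p of 0.0531 to 0.0979, and r without the 2 farthest mice between 0.469 and 0.623. Among all 12152 other genes, Zbtb16 ranked 3 for likeness to Hif3a and Tsc22d3 5 for Sgk1, but Sgk1 ranked 221, Tsc22d3 321 and Fkbp5 425 for Hif3a, Sgk1 172, Fkbp5 170 and Tsc22d3 198 for Zbtb16, and Pdk4 795 for Tsc22d3, so that for these pairs many other genes were closer. By genotype (first WT/WT, then 304Q/304Q), r was 0.899 and 0.195 for Sgk1 and Zbtb16, 0.888 and 0.237 for Tsc22d3 and Zbtb16, 0.901 and 0.642 for Sgk1 and Tsc22d3, and 0.88 and 0.785 for Hif3a and Zbtb16, and whether these differ was not tested. WT/WT mouse 1 of 2 months, high for most of these genes, carries much of this: without it only Hif3a and Zbtb16 passed (r = 0.774, adjusted permutation p = 0.0364), and Sgk1 and Tsc22d3 had r = 0.807 with an adjusted permutation p of 0.119. Without WT/WT mouse 1 of 12 months 2 pairs passed.

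The metallothioneins were in none of the pairs that passed, at the precision of 20 mice. Over the 17 pairs with Mt1 or Mt2, the lowest adjusted permutation p was 0.297 by Pearson's r and 0.0979 by Spearman's rho. Mt1 had r = -0.299 with Hif3a, -0.208 with Zbtb16 and 0.371 with Mt2 (permutation p = 0.18, adjusted 0.369, rho = 0.232 with permutation p = 0.364), and the last dropped to 0.0185 without the 2 mice farthest from the median of Mt1. Mt2 had r = 0.238 with Hif3a, 0.315 with Zbtb16, 0.318 with Sgk1, 0.441 with Fkbp5 and 0.452 with Tsc22d3. Its r was -0.121 with Sult1a1, -0.0244 with Pdk4 and -0.0659 with Nr3c1. For Mt2 and Fkbp5, rho was 0.562 (permutation p = 0.0277, adjusted 0.0979). Mt1 and Mt2 had r = -0.262 at 2 months and 0.729 at 12 months, and whether these differ was not tested. Sult1a1 and Nr3c1 were in no pair that passed either, at most r = 0.514 (permutation p = 0.0386, adjusted 0.116) and 0.551 (permutation p = 0.0194, adjusted 0.0728), both with Hif3a.

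**Figure D4:**
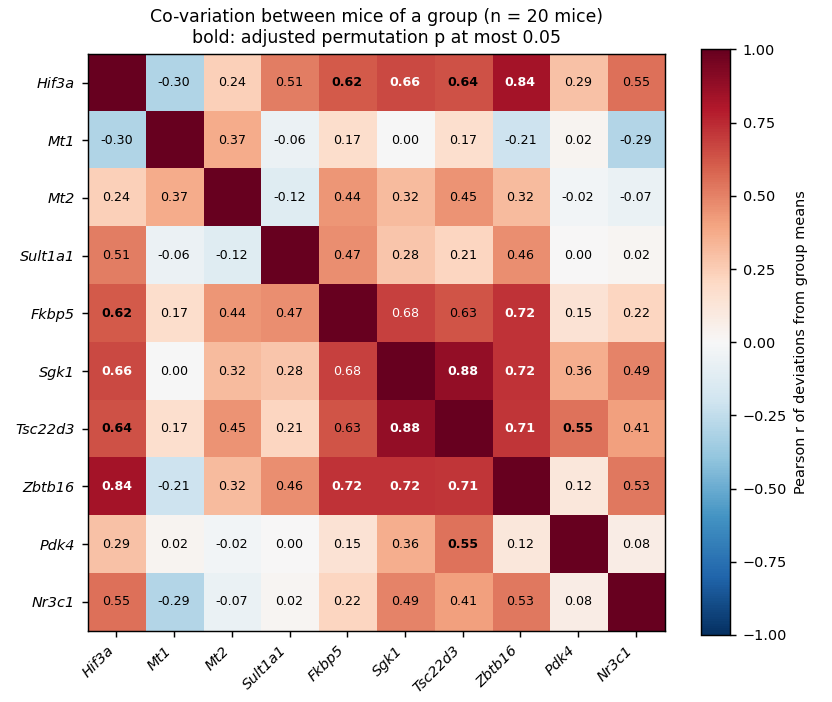
Pearson's r of the deviations from group means over 20 mice for each pair of the 10 genes (both axes, colour from -1 to 1); bold marks an adjusted permutation p of at most 0.05. The 9 bold pairs lie among Hif3a, Fkbp5, Sgk1, Tsc22d3, Zbtb16 and Pdk4, and the rows of Mt1 and Mt2 hold none.

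Co-variation was then measured between the 10 genes and the 12 other glucocorticoid-induced genes, a family of 120 pairs added after the data were seen. Of these, 21 passed by Pearson's r, which is meant by passed here. Tsc22d3 was in 7 of these pairs, Sgk1 in 6, Zbtb16 in 3, Hif3a in 2, Fkbp5, Pdk4 and Nr3c1 in 1 each, and Mt1, Mt2 and Sult1a1 in none. By Spearman's rho, Mt2 passed with Arrdc2 (rho = 0.633, adjusted permutation p = 0.0418), where r was 0.591 (adjusted permutation p = 0.097). Tsc22d3 and Klf15 were the most alike, with r = 0.94 and rho = 0.949 (adjusted permutation p = 0.0016 and 0.002), and of 12152 other genes tested Klf15 ranked 1 for likeness to Tsc22d3, also without WT/WT mouse 1 of 2 months (r = 0.904). Bcl6 ranked 7 (r = 0.856), Per1 10 (r = 0.851) and Errfi1 29 (r = 0.816) for Tsc22d3, and Klf15 ranked 7 for Sgk1 (r = 0.857) and 13 for Zbtb16 (r = 0.828). Without that mouse these ranks were lower, at 39, 19 and 66 for Tsc22d3, 36 for Sgk1 and 26 for Zbtb16. Nr3c1 passed with Klf9, a Krüppel-like factor (r = 0.751), which ranked 106 for it. Some pairs that passed ranked far lower over all 20 mice. Ddit4 ranked 1951 for Sgk1 (r = 0.42) and 687 for Tsc22d3 (r = 0.564), and Gpd1 ranked 386 for Zbtb16 (r = 0.663). For such pairs many other genes were closer, and the share of pairs that would pass over all genes was not computed. Outside the lists, the genes most like Hif3a over the 20 mice were 1700025G04Rik (r = 0.876), Phactr4 (0.835) and Mllt3 (0.829). For Mt2 they were Med30 (0.769), Lactb2 (0.718) and Slc29a3 (0.678), and for Fkbp5 Mtrf1l (0.837), Adora1 (0.763) and Gm14399 (0.757), each the highest of many and given as a description.

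**Figure D5:**
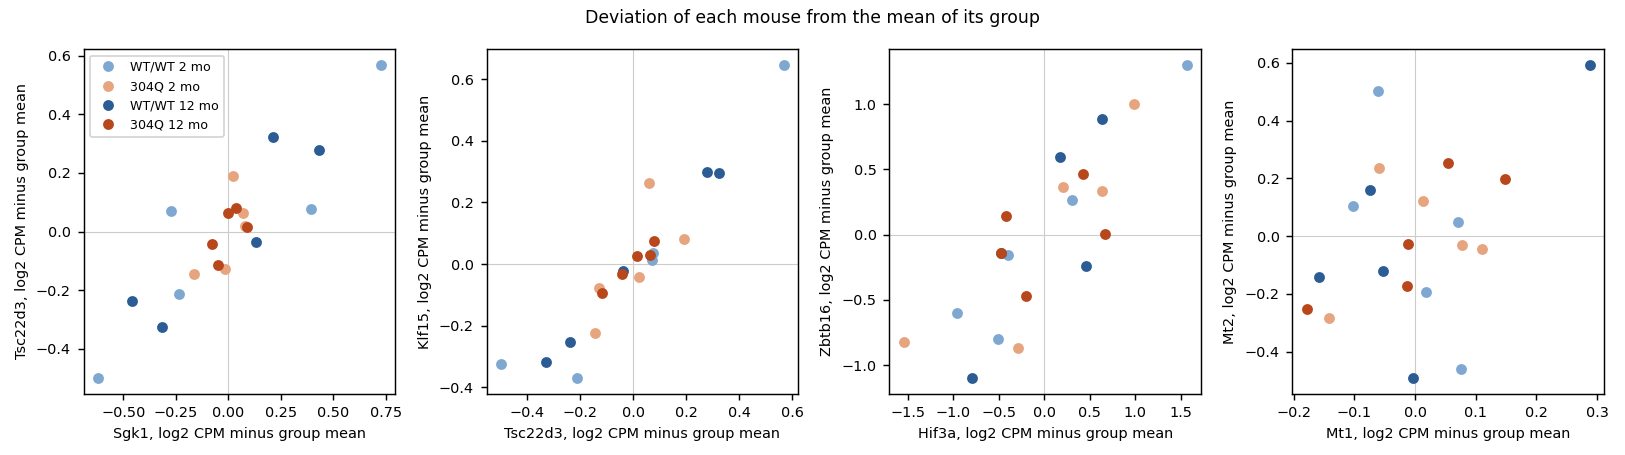
Deviation of log2 CPM from the group mean in each of 20 mice (points, coloured by group) for Sgk1 and Tsc22d3, Tsc22d3 and Klf15, Hif3a and Zbtb16, and Mt1 and Mt2. The first 3 pairs rise together (r = 0.878, 0.94 and 0.835), with a WT/WT mouse of 2 months at the upper right, and the last does not pass (r = 0.371).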

How the data were processed

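RNA of 20 cerebella was sequenced as stranded, polyA-enriched libraries. Reads were aligned by the authors to GRCm38 with STAR (2.4.5b in the submitters' processing notes, another version in the paper's methods) and assigned to genes with Rsubread, and the deposited table holds whole-number counts, not normalized, of 29200 Ensembl genes. Every column was matched to 1 mouse by its name, and symbols came from GENCODE M21.

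From these counts, library sizes were scaled by TMM in edgeR 4.0.16 (R 4.3.3). A mean of 50 counts or more was required, which left 12153 genes with 99.31% of the counts. The model had 1 coefficient per group over all 20 libraries, and genes were tested by edgeR's quasi-likelihood method with Benjamini-Hochberg adjustment over all of them. The biological coefficient of variation was 0.113, and for genes near 50 counts counting error adds to it. Log2 CPM used a prior count of 2. The lowest chi-square per degree of freedom between replicates was 4.07, so no library was a repeat of another. Nothing says more of the mice than separate labels, so p-values measure the spread between these samples.

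The members and all lists were chosen with earlier results of these data known. Named are all members, every listed gene called between the genotypes and the 2 tested genes of each list with the largest genotype difference at 12 months, and the 3 genes most like Hif3a, Mt2 and Fkbp5. Klf9, Errfi1, Ddit4, Sesn1, Arrdc2, Nfkbia, Gpd1, Ncoa2, Ttr, Fos and Arc were picked once their values were known. A gene that this rule names is not reported here. The alternatives comprised DESeq2 1.42.0, also with 3 surrogate variables of sva 3.50.0, its size factors and those variables in edgeR, a mean of at least 1 count, at least 50 counts in every library, only the 2 groups compared, the replicate block, no fold limit, a prior count of 0.5 and each library left out. The libraries with choroid plexus RNA were left out as an alternative added after the data were seen. The fits and the permutation test were tested on simulated data. Reads of overlapping genes are uncertain, as the strand setting was not given in the sources used here.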

Additional observations from a re-analysis of the deposited data

Results flagged for a closer look

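Pdk4 in WT/WT mouse 1 of 12 months stood at 169.3 normalized counts, apart from the other 4 mice of its group at 105 to 119. Nr3c1 in 304Q/304Q mouse 1 of 12 months stood at 1609 normalized counts, below the other 4 at 1813 to 1850. These were 2 of 40 groups of 5 mice examined with Dixon's critical value of 0.71, and chance marks about 1 in 20 groups. That 304Q/304Q library is also 1 of the 6 with choroid plexus RNA, as is that WT/WT library, and the part of this in both values was not tested.

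The effect of the genotype differed between 2 and 12 months for Mt1, by -0.60 on the log2 scale. It differed by -0.78 for Dbp and by -0.50 for Nr1d1. In each of these 3 genes the difference passed in all 25 alternatives in which it was fitted, with highest adjusted p of 0.00875, 0.0156 and 0.0226. The 12-month mice that enter them also chose Hif3a, Mt2 and Sult1a1.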

How the results depend on the processing

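With 5 mice a group, low genes such as Hif3a and Sult1a1 allow only coarse estimates, and single mice and libraries with choroid plexus RNA change several counts. Of 1640 gene values under the alternatives, 1592 were counted as the same and 22 as changed in sign. Another 14 lost a call, 8 gained one and 4 moved by more than the spread. For the members at 12 months, and for Hif3a, Mt2 and Sult1a1 with age, calls were not compared. A change of sign was counted there only for values that met the call rule, and the others were compared by size alone. That of Mt2 with age in WT/WT mice, from 0.05 to -0.13 without WT/WT mouse 3 of 12 months, is therefore not among the 22. Calls of members gained or lost in these comparisons are likewise not among the 14 and the 8. Zbtb16, for example, met the rule at 12 months in 11 of 28 alternatives.

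Of the members, 7 met the call rule at 12 months, 4 with at least 50 counts in every library (fewer members are tested there), 2 without the choroid plexus libraries (5 mice remain at 12 months) and 5 to 8 with single libraries left out. The called genes of the list of other glucocorticoid-induced genes numbered 5, with 1 without the choroid plexus libraries, 8 by adjusted p alone, and 4 to 5 with single libraries left out. At 2 months both counts stayed at 0 in every alternative. With age in WT/WT mice the count of members was 0, 2 by adjusted p alone, and 0 in every fit with a library left out. In 304Q/304Q mice it was 1, 2 by adjusted p alone, and 0 to 1 with libraries left out (0 without 304Q/304Q mice 1, 3 or 5 of 2 months or 2 or 5 of 12 months).

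The pairs of members that passed numbered 9, 5 with surrogate variables removed, and 1 to 12 with single libraries left out, lowest without WT/WT mouse 1 of 2 months. Leaving out WT/WT mouse 5 or 304Q/304Q mouse 2 of 2 months gave 4. The r of Sgk1 and Tsc22d3 ran from 0.807 to 0.921 and that of Mt1 and Mt2 from 0.0295 to 0.495 with libraries left out.

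The replicate numbers of the labels did not pair the mice: deviations of same-numbered mice correlated between -0.323 and 0.0774. With the replicate block, 2 members met the call rule with age in 304Q/304Q mice, 11 pairs of members passed, and r of Mt1 and Mt2 turned to -0.194. The cause was not tested.

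The values that changed sign had no call. At 2 months Fkbp5 came to 0.0 and Nr3c1 to 0.01 with surrogate variables in edgeR or DESeq2. With libraries left out, the 2-month values ran from -0.77 to 0.11 for Hif3a and from -0.18 to 0.09 for Fkbp5. The age values in WT/WT mice ran from -0.10 to 0.25 for Sgk1, from -0.12 to 0.62 for Zbtb16 and from -0.22 to 0.01 for Pdk4, and those of Pdk4 in 304Q/304Q mice from -0.12 to 0.16. For Mt2 the age value in WT/WT mice ran from -0.13 to 0.20, which was counted as the same. Without the choroid plexus libraries the age values in WT/WT mice were -0.10 for Sgk1 and -0.03 for Zbtb16. Fosb at 12 months turned to 0.15 with surrogate variables in edgeR and to 0.10 with them in DESeq2. The cause was not tested.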
